A study of Mus musculus with 8 samples.

Results

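The 10 genes described here, *Hhip*, *Fam13a*, *Ireb2*, *Adgrg6*, *Adam19*, *Dsp*, *Npnt*, *Tns1*, *Thsd4* and *Rin3*, are mouse counterparts of genes that lie at human loci associated with the risk of chronic obstructive pulmonary disease (COPD). They were chosen by name, and all 10 were among the 33027 genes of the deposited table. Single-cell RNA sequencing was performed on right lungs from *Sftpc-CreERT2-mTmG* mice, in which a tamoxifen-dependent Cre recombinase driven by the surfactant protein C promoter switches on a fluorescent reporter in alveolar epithelial type II (AT2) cells. Every mouse had received tamoxifen at 8 to 10 weeks of age. Of these, 4 mice were then exposed to cigarette smoke (CS) for 10 months, 6 h a day on 5 days a week, and 4 littermates breathed room air (RA) only. The cell suspensions were mixed to 10% CD45+ and 90% CD45- cells before loading, so the share of a cell type in the files was set in part by that step. Each of 4 lanes held 1 CS and 1 RA mouse. The mice are called CS mouse 1 to 4 and RA mouse 1 to 4, with CS mice 1, 2, 3 and 4 on lanes 1, 3, 2 and 4 and RA mice 1, 2, 3 and 4 on lanes 1, 2, 3 and 4. Whether the littermates came from 1 litter or several was not given in the sources used here.

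A genome-wide association signal marks a stretch of genome rather than a gene, and the gene nearest to it is often taken as the candidate. *Hhip* encodes a membrane-anchored decoy that binds Hedgehog ligands and is itself switched on by Hedgehog signaling. *Npnt* encodes nephronectin, a matrix ligand of integrin α8β1, and *Thsd4* encodes ADAMTSL6, a matrix protein that binds fibrillin microfibrils. *Dsp* encodes desmoplakin, which ties desmosomes to keratin filaments, and *Tns1* encodes tensin 1, which ties integrins to actin. *Adgrg6* encodes an adhesion G protein-coupled receptor that raises cAMP, *Adam19* a membrane metalloprotease, *Rin3* an exchange factor for Rab5 GTPases, *Ireb2* the iron regulatory protein IRP2, and *Fam13a* a protein that takes part in the turnover of beta-catenin.

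The files held 41106 cells, of which 40074 were used after the clusters the authors called multiplets (1025 cells) and cycling cells (7 cells) were left out. The CS mice gave 20330 and the RA mice 19744 of these, with 2553 to 6371 cells and 31094700 to 52753500 transcripts (unique molecular identifiers, UMIs) per mouse. The cell totals given by the study differ from these, with more RA than CS cells, and the cause was not tested. A level is given throughout as transcripts per 10,000 transcripts of a cell, averaged over the cells of a type in each mouse. A mouse entered a type with at least 20 cells, and 22 of the 32 types had at least 3 such mice in each group. These 22 types make up the order of levels, and the 10 rarer types are given apart. The types are the clusters the authors named, and whether the 10 genes entered that clustering was not given. At least 1 of the markers set for a type was highest in the type of that name in all types that had markers but cDC2, whose single marker *Cd209a* was higher in mature dendritic cells. In club cells only 1 of the 3 markers was highest, and in non-classical monocytes 1 of 2. In peribronchial fibroblasts and in arterial and venous endothelial cells 2 of 3 were. Between 1 and 13 barcodes were shared by each pair of the 8 libraries. The labelled sexes of the 4 CS libraries did not match their levels of *Xist*, expressed from the inactive X chromosome, and of the Y-linked *Ddx3y*: CS mice 1 and 2, labelled male, had *Xist* at 7.83 and 8.34 and *Ddx3y* at 0.0027 and 0.017 per 10,000, and CS mice 3 and 4, labelled female, had *Xist* at 0.042 and 0.016 and *Ddx3y* at 0.925 and 1.08. All 4 RA libraries matched their labels, so by these 2 transcripts each exposure group still held 2 mice of each sex. RA mouse 1 stood apart from the rest of its group, with a median correlation across genes of 0.952 over cell types against 0.971 to 0.979 for the other 7 mice. It was also the lowest of the 4 RA mice in 52 of the 94 comparisons of a member within a type that had 4 RA mice.

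The promoters of *Hhip* and *Rin3* are shown because these 2 genes carry the CS differences with the largest sizes among those that passed the test below. They are the 250 bases upstream of a RefSeq transcription start on GRCm38.p6, written 5′ to 3′ on the strand of the gene. *Hhip* (ENSMUSG00000064325) spans chromosome 8, 79965851 to 80058006, minus strand, and its window is chr8:80058009-80058258. *Rin3* (ENSMUSG00000044456) spans chromosome 12, 102283048 to 102390855, plus strand, and the window of its upstream start is chr12:102282824-102283073.
Hhip: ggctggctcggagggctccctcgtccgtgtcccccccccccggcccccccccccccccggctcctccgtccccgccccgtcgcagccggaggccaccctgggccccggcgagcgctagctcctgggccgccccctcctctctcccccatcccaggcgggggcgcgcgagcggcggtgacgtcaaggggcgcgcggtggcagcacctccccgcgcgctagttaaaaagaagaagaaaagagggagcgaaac
Rin3: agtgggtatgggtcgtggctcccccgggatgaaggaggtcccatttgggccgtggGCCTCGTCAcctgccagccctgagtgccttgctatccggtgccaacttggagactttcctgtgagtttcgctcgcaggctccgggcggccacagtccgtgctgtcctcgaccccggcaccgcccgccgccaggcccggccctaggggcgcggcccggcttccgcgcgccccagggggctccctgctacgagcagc
A set of 3 motifs were searched on both strands, the GLI site GACCACCCA of Hedgehog signaling, the core GCGTG bound by the aryl hydrocarbon receptor, and the antioxidant response element TGACNNNGC. The antioxidant element was found once in these windows, on the opposite strand of the *Rin3* window at position −195 from the start (capitals), and in 10.2% of 32851 promoters overall. This *Rin3* window was the one shown because it holds the element, so its presence there is no result. The window of the other *Rin3* start, chr12:102283391-102283640, has no such element and has the core GCGTG at position −171. The element was in 1 of the 15 promoter windows of the 10 genes. The GLI site was in none of the 15 promoter windows of the 10 genes and in 0.225% of all promoters. The core GCGTG was in 7 of the 15 and in 28.2% of all. A match is a description of these letters only, and a missing one says nothing of the factor.

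The other genes lie on chromosome 6, 58932090 to 59024549 (*Fam13a*), chromosome 9, 54863789 to 54912530 (*Ireb2*), chromosome 10, 14402583 to 14545659 (*Adgrg6*), chromosome 11, 46055992 to 46147343 (*Adam19*), chromosome 13, 38151294 to 38198577 (*Dsp*), chromosome 3, 132881745 to 132950291 (*Npnt*), chromosome 1, 73910231 to 74124449 (*Tns1*) and chromosome 9, 59966931 to 60522046 (*Thsd4*), all on GRCm38. All 10 are protein-coding, and counts run over exons and introns, since unspliced transcripts were kept.

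*Hhip* transcripts were held mostly by peribronchial fibroblasts, the stromal cells that sit beneath the airways. Their level was 45.8 ± 13.1 (SD, n = 6 mice), and 247 of 252 of these cells held a transcript. The level was 55.7, 56.3 and 48.4 in CS mice 2, 3 and 4 and 23.7, 36.5 and 54.3 in RA mice 1, 2 and 3. Adventitial fibroblasts followed at 0.916 ± 0.655 (n = 8), and the level was higher in peribronchial fibroblasts in each of 6 mice (exact paired permutation test, two-sided, p = 0.0312, the smallest that 6 mice allow; adjusted p = 0.0735 over 40 pairs of neighbors). Mesothelial cells (0.185 ± 0.232, n = 7) and alveolar fibroblasts (0.166 ± 0.116, n = 8) did not differ beyond their spread (exact p = 0.906, adjusted p = 0.906). The mesothelial mean rests on CS mouse 2, at 0.71, without which it was 0.0977 ± 0.0153 (n = 6) and below that of alveolar fibroblasts. The gene was at 0.0424 or less in the other 18 types. Of all *Hhip* transcripts in a mouse, peribronchial fibroblasts contributed 74.3% ± 8.1 and adventitial fibroblasts 14.4% ± 8.1 (n = 8). Because the order was read from the same values that were tested, the p-values of all such neighbor tests are too small and serve only beside the ranges.

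AT2 cells, the surfactant-producing cells that the reporter marks, held little of the transcript. *Hhip* was found in 15 of 1881 AT2 cells (0.797%, exact binomial 95% interval 0.447 to 1.31%, counting error only), at a median depth of 11684 transcripts. In ciliated cells, with 15907 transcripts, the share was 0.455%, and in gCap cells, with 3833 transcripts, it was 0.15%. Thinned to 2000 transcripts a cell, the share in AT2 cells was 0.175%. The level in AT2 cells was 0.0165 ± 0.0292 (n = 8), with the highest value, 0.0882, in CS mouse 2, and AT2 cells contributed 0.457% ± 0.592 of the *Hhip* transcripts of a mouse. Against smooth muscle cells only 3 mice had 20 cells of both types, with means of 0.0332 in AT2 and 0.292 in smooth muscle cells. The log2 difference was −1.19 ± 1.49 (SD, n = 3; exact paired permutation test p = 0.5, where 3 mice allow no p under 0.25), so no difference could be shown at this number of mice. Against peribronchial fibroblasts the difference was −8.55 ± 0.48 on the log2(level + 0.1) scale, with AT2 cells lower in 6 of 6 mice (exact p = 0.0312). Against adventitial fibroblasts AT2 cells were lower in 8 of 8 mice (−2.91 ± 0.76, exact p = 0.0078). Against alveolar fibroblasts the difference was −1.09 ± 0.53 (exact p = 0.0156, n = 8). The 3 comparisons with fibroblasts were chosen after seeing the data.

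**Figure D1:**
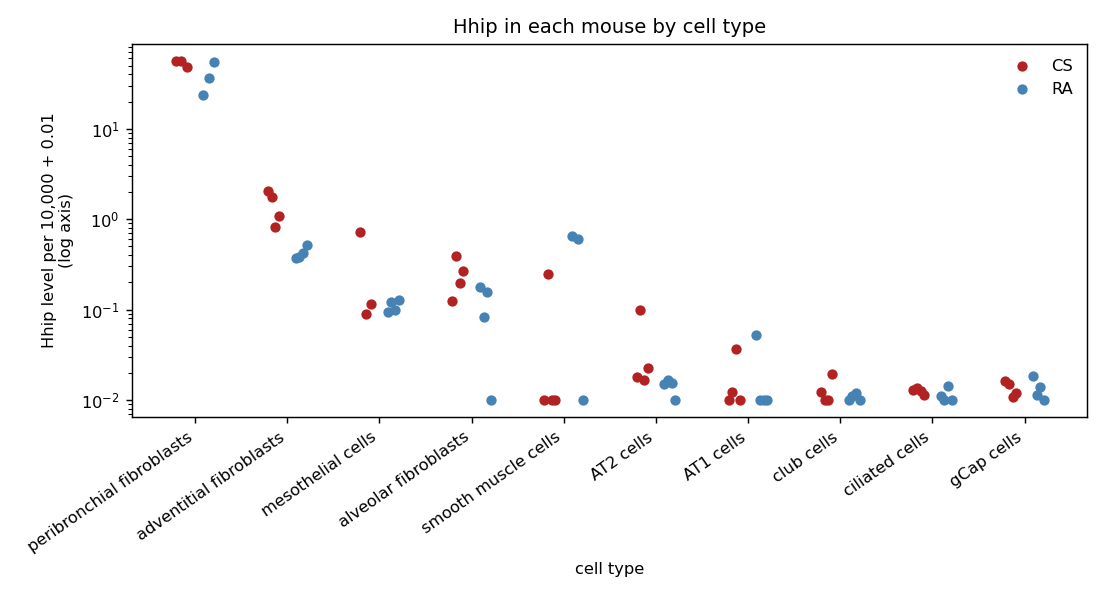
*Hhip* level in each mouse (points, CS red, RA blue) by cell type, plotted as level per 10,000 + 0.01 on a log axis; smooth muscle cells include mice with 10 or more cells and the other types mice with 20 or more. Peribronchial fibroblasts lie at 23.7 to 56.3, and AT2 cells lie at or below 0.0882.

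*Npnt* and *Tns1* were both highest in alveolar fibroblasts, with alveolar epithelial type I (AT1) cells, the thin cells of gas exchange, next. *Npnt* was at 14.5 ± 3.55 in alveolar fibroblasts and 6.34 ± 1.13 in AT1 cells (n = 8), higher in fibroblasts in 8 of 8 mice (log2 difference 1.15 ± 0.26, exact paired permutation p = 0.0078, adjusted p = 0.0284). Lymphatic endothelial cells (1.81 ± 1.03), adventitial fibroblasts (1.63 ± 0.62) and mesothelial cells (1.57 ± 0.20) came next and did not differ as neighbors (exact p = 0.844 and 0.609). *Tns1* was at 16.6 ± 1.97 in alveolar fibroblasts, 10.8 ± 0.91 in AT1 cells and 8.53 ± 1.52 in lymphatic endothelial cells (n = 8), each step in the same direction in 8 of 8 mice (exact p = 0.0078, adjusted p = 0.0284 for both). Alveolar fibroblasts contributed 48.2% ± 9.8 of *Npnt* and 26.4% ± 8.9 of *Tns1* transcripts. *Tns1* was below 0.1 in only 4 of the 22 types, whereas *Npnt* was below 0.1 in 12. In the rare smooth muscle cells and pericytes, counted in mice with at least 10 cells (a limit set after seeing the data), *Tns1* was at 12.9 ± 3.15 (n = 7) and 12.3 ± 1.75 (n = 6).

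*Adgrg6* was highest in arterial endothelial cells, at 6.44 ± 1.63 (n = 8), against 2.23 ± 0.54 in alveolar fibroblasts and 1.67 ± 0.52 in venous endothelial cells. The arterial level exceeded that of alveolar fibroblasts in 8 of 8 mice (log2 difference 1.48 ± 0.23, exact p = 0.0078, adjusted p = 0.0284). The neighboring step from alveolar fibroblasts to venous endothelial cells was not called after adjustment (exact p = 0.0234, adjusted p = 0.067). Pericytes, which wrap capillaries, reached 8.81 ± 2.89 (n = 6 mice with at least 10 cells), and neuroendocrine cells 6.25 ± 1.84 (n = 5). The range of the arterial cells was 3 to 8.11.

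*Thsd4* was highest in mesothelial cells, the lining of the pleura, at 6.32 ± 2.13 (n = 7), followed by club cells, the secretory cells of the airway, at 4.8 ± 0.97 (n = 8) and AT2 cells at 4.11 ± 0.69 (n = 8). Neither step was called (exact p = 0.0625, adjusted p = 0.132, and exact p = 0.0703, adjusted p = 0.141). Aerocytes, the capillary cells that face the air space, were lower than AT2 cells in 8 of 8 mice at 2.66 ± 0.45 (exact p = 0.0078, adjusted p = 0.0284). Smooth muscle cells reached 10.9 ± 4.35 (n = 7 mice with at least 10 cells).

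*Fam13a* and *Dsp* were high in the airway epithelium and in 1 alveolar type each. *Fam13a* was at 2.94 ± 0.92 in club cells, 2.61 ± 0.50 in alveolar fibroblasts and 2.29 ± 0.24 in ciliated cells (n = 8), and these 3 types did not differ beyond their spread (exact p = 0.523 and 0.297). Goblet cells were lower than ciliated cells in 8 of 8 mice at 1.2 ± 0.56 (exact p = 0.0078, adjusted p = 0.0284). Ciliated cells contributed the most *Fam13a* transcripts (41.2% ± 9.3), ahead of club cells (31.4% ± 10.7). On the opposite strand *Fam13a* overlaps the antisense gene *BB365896*, and it was not given whether reads were counted by strand. *Dsp* was at 0.905 ± 0.045 in AT1 cells and 0.845 ± 0.082 in ciliated cells (n = 8), which did not differ (exact p = 0.148, adjusted p = 0.247), and goblet cells were lower at 0.516 ± 0.132 (exact p = 0.0078, adjusted p = 0.0284). Basal cells, the airway progenitors, were at 1.43 ± 0.34 (n = 8 mice with at least 10 cells). Club cells (0.428 ± 0.051) and AT2 cells (0.327 ± 0.062) followed, and *Dsp* was below 0.1 in the other 17 types of the order.

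*Adam19* was highest in AT2 cells, at 1.84 ± 0.27, and lymphatic endothelial cells followed at 0.949 ± 0.241 (n = 8; higher in AT2 cells in 8 of 8 mice, exact p = 0.0078, adjusted p = 0.0284). B cells (0.77 ± 0.20) and T cells (0.727 ± 0.352) came next, and the steps from lymphatic cells to B cells and from B cells to T cells were not called (exact p = 0.203 and 0.531). T cells were higher than aerocytes (0.378 ± 0.127) in 7 of 8 mice (exact p = 0.0312, adjusted p = 0.0735). Conventional dendritic cells of type 1, which were rare, reached 4.25 ± 0.22 in the 3 mice with at least 10 cells, and plasmacytoid dendritic cells 2.89 ± 1.89 (n = 4). Overlapping antisense genes lie at the 3′ end of *Adam19*, where 3′ tags are counted.

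*Ireb2* and *Rin3* were spread across the lung. *Ireb2* lay between 0.128 in the cells labelled NG and 0.696 ± 0.138 in B cells (n = 8), and 7 of the 22 types were within a factor of 2 of the highest. B cells exceeded aerocytes (0.541 ± 0.131) in 8 of 8 mice (exact p = 0.0078, adjusted p = 0.0284), and the next 3 steps were not called (exact p = 0.0781 to 0.766). *Rin3* was at 3.47 ± 1.07 in aerocytes (n = 8), 3.02 ± 0.53 in NK and cytotoxic T cells (n = 7) and 2.51 ± 0.44 in general capillary (gCap) cells (n = 8). Those steps were not called (exact p = 0.844 and 0.156), and 7 types reached at least 50% of the highest level. gCap cells contributed 34.5% ± 7.2 and aerocytes 22% ± 2.9 of *Rin3* transcripts. *Rin3* was lowest in ciliated cells at 0.0356.

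**Figure D2:**
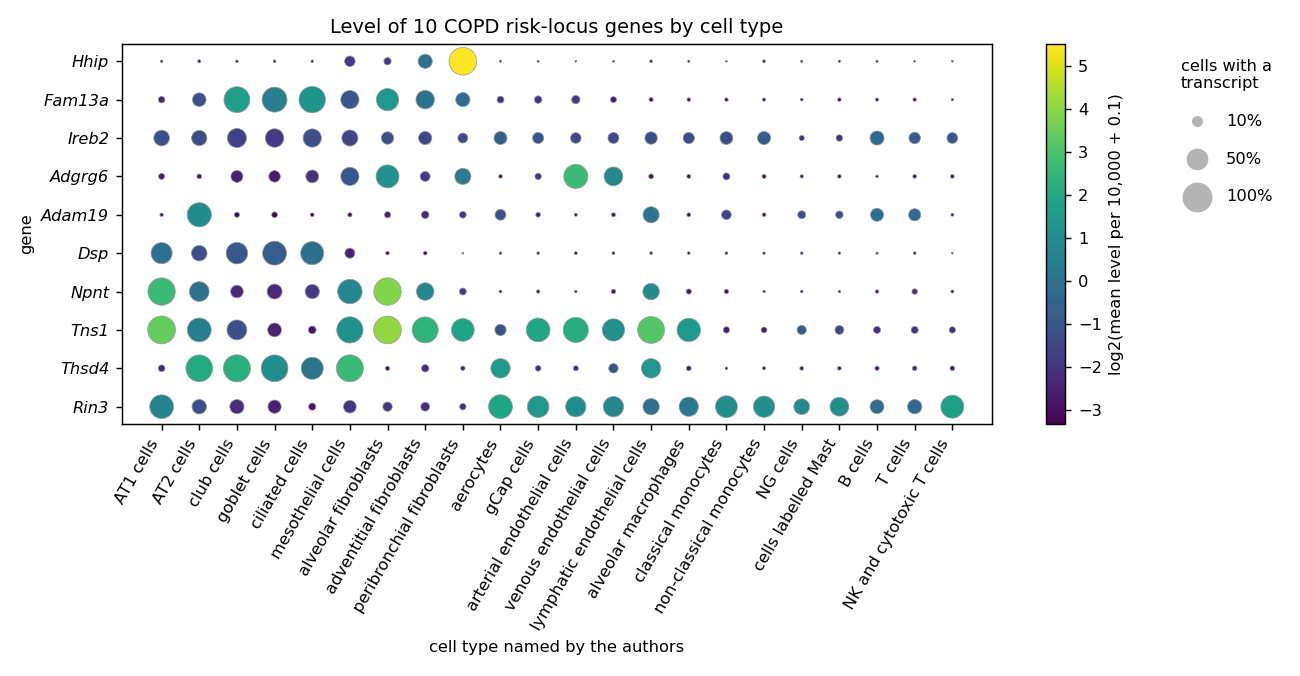
Mean level over mice (color, log2 of level per 10,000 + 0.1) and share of cells with a transcript (dot size) of the 10 genes (rows) in the 22 ordered cell types (columns). *Hhip* has a single bright dot in peribronchial fibroblasts at 45.8, *Ireb2* lies between 0.128 and 0.696, and *Rin3* spans endothelial and immune types.

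Genes with the most similar pattern were named by the Pearson correlation of log2(mean level + 0.1) across the 22 types, among 9785 genes at 0.5 or more in some type. These correlations describe types that share libraries and carry no test. For *Hhip* they were *Pappa2* (r = 0.988), *6530403H02Rik* (0.983) and *Aspn* (0.982), and for *Dsp* *Ripk4* (0.986), *Cdcp1* (0.982) and *Tmprss2* (0.979). *Fam13a* was most like *A230057D06Rik* (0.926), *Tmem53* (0.922) and *Aox1* (0.909), and *Ireb2* most like *Slc30a5* (0.906), *Mms19* (0.888) and *Chd8* (0.885). *Tns1* was most like *Sparc* (0.898), *Sh3d21* (0.88) and *Arhgap28* (0.87), and *Rin3* most like *Rap1a* (0.894), *Rnf115* (0.856) and *Gm8995* (0.849). *Adgrg6* was most like *Nuak1* (0.884), *Vcam1* (0.863) and *Afap1l2* (0.848), *Npnt* most like *Gm28055* (0.875), *Cdk18* (0.858) and *Npr2* (0.858), and *Thsd4* most like *Ccnd1* (0.846), *Idh2* (0.806) and *C77080* (0.799). *Adam19* had the least similar partners, *Inpp4b* (0.71), *Gabpb1* (0.611) and *Gm20275* (0.601). Among the members themselves the most alike pair was *Npnt* and *Tns1* (r = 0.676).

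The smoke comparison asked whether CS shifted each gene within a cell type. Differences are on the log2(level + 1) scale, which understates the change of low genes, and were tested with limma over mice with Benjamini-Hochberg adjustment over all genes of a type. A gene entered the test of a type if 10% or more of the CS cells or of the RA cells held it. It could thus enter through the group with the higher level alone, which affects counts of directions. This gave 105 comparisons of a member within a type. In 4 of these (3.81%) the adjusted p was below 0.05, against 1.23% of the 171901 comparisons of all genes (2118 calls). *Hhip* in adventitial fibroblasts and *Thsd4* in ciliated cells were higher in CS mice, and *Rin3* in aerocytes and gCap cells was lower. The unadjusted p was below 0.05 in 28 (26.7%), against 15.2% of all comparisons, with 20 higher and 8 lower in CS mice. CS and RA mice did not overlap in 22 (21%), against 10.7% of all comparisons, with 17 higher and 5 lower. The CS mean was higher in 70.5% of the members' comparisons and in 54.2% of all. RA mouse 1 was often the lowest RA mouse, as given above, and these counts are not given without it. The median difference was 0.07 over the members' comparisons and 0.01 over all. The same 8 mice underlie every comparison, and p-values measure the spread between these mice.

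**Figure D3:**
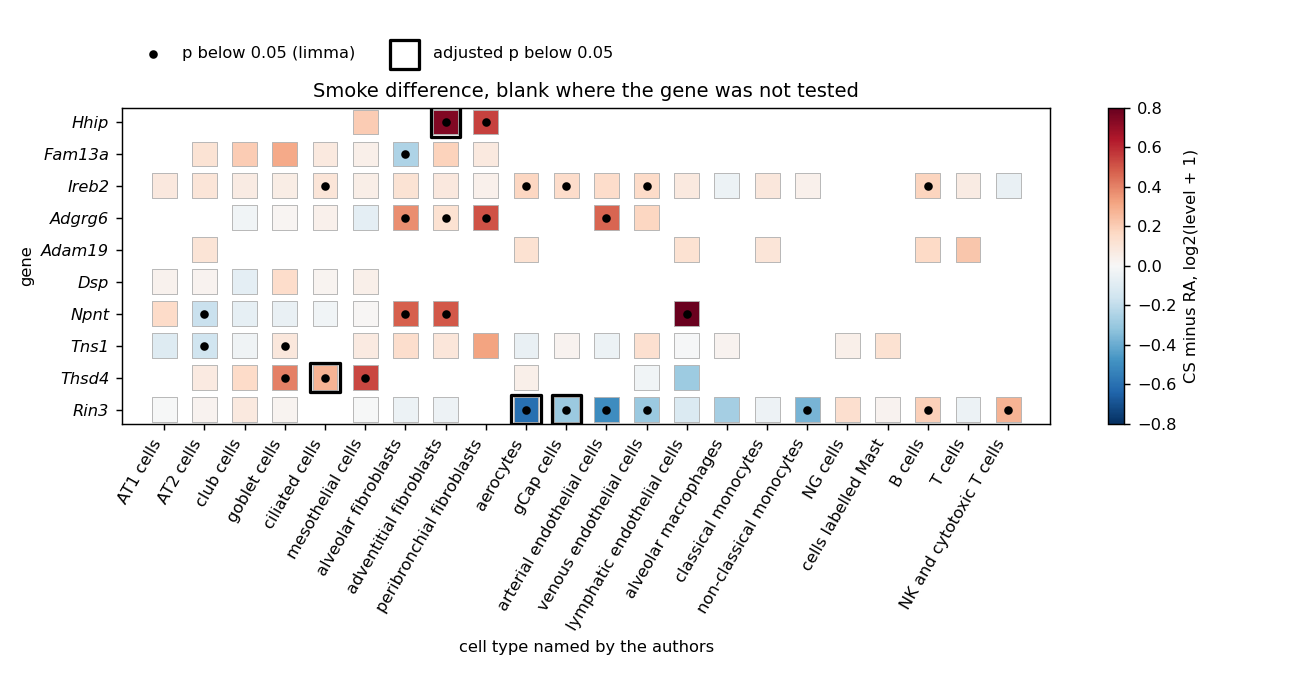
CS minus RA difference on the log2(level + 1) scale (color) of each gene (rows) in each cell type (columns) where it was tested; dots mark an unadjusted p below 0.05 and heavy frames an adjusted p below 0.05 (limma). The 4 framed squares are *Hhip* in adventitial fibroblasts (0.74), *Thsd4* in ciliated cells (0.28), and *Rin3* in aerocytes (−0.60) and gCap cells (−0.29).

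*Hhip* rose in adventitial fibroblasts, the stromal cells of the vascular and bronchial cuffs. The level was 2.03, 1.75, 0.801 and 1.08 in CS mice 1 to 4 and 0.362, 0.374, 0.415 and 0.513 in RA mice 1 to 4. Each CS mouse was above each RA mouse, and CS was therefore higher in 4 of 4 lanes. The means were 1.42 ± 0.57 and 0.416 ± 0.069 (SD, n = 4 each), a ratio of 3.4 (log2 difference 0.74, SE 0.14, limma adjusted p = 0.0236). Part of this difference lay in a small share of cells with much *Hhip*, given below. In these cells 3.1% of genes were called. *Hhip* was found in 32.2% of the cells of a CS mouse and 18.3% of those of an RA mouse on average, and after thinning to 2000 transcripts a cell in 15.6% and 6.77% (exact permutation p = 0.0286, n = 4 each). The call was lost with lane as a block (limma adjusted p = 0.0665) and without CS mouse 2 (log2 difference 0.67), RA mouse 1 (0.72), RA mouse 2 (0.73) or RA mouse 4 (0.77).

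Peribronchial fibroblasts hold the most *Hhip*, and their markers were read in the adventitial fibroblasts. The summed level of the peribronchial fibroblast markers *Fgf18*, *Aspn* and *Lgr6* in adventitial fibroblasts was 0.449 in both groups, with ranges of 0.145 to 0.717 in CS mice and 0.258 to 0.571 in RA mice (exact permutation p = 1, n = 4 each), and 1 of the 3 markers was higher in CS mice. Their sum in peribronchial fibroblasts was 12.7, and 2 of the 3 were highest in that type. The part of cells of other types in the *Hhip* difference was not tested. Cells above 10 transcripts of *Hhip* per 10,000, a limit set after seeing the data, numbered 18 of 604 in CS mice and 2 of 799 in RA mice. Of the 18, 8 came from CS mouse 2. Without these cells the adventitial means were 0.887 ± 0.294 in CS and 0.396 ± 0.089 in RA mice (log2 difference 0.42). The groups still did not overlap, at 0.584 to 1.23 and 0.322 to 0.513. In peribronchial fibroblasts, where *Hhip* was highest, the difference was 0.55 (SE 0.23, limma adjusted p = 0.537), and the ranges overlapped (48.4 to 56.3 and 23.7 to 54.3). The difference was 0.25 without RA mouse 1 and 0.84 without RA mouse 3.

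*Ptch1*, the Hedgehog receptor and like *Hhip* a feedback target of the pathway, rose in the same adventitial fibroblasts. It was at 2.92, 1.82, 2.46 and 2.05 in CS mice 1 to 4 and 0.749, 0.865, 0.78 and 0.679 in RA mice 1 to 4, so the groups did not overlap (log2 difference 0.90, SE 0.099, limma adjusted p = 0.002). The adjusted p was 0.0283 with lane as a block, and *Ptch1* was called under 17 of 17 alternatives. Among these, at least 50 cells per mouse repeats the same fit in this type. Of the other 9 Hedgehog genes tested there none was called. The transcription factor *Gli2* was at 0.633 ± 0.125 and 0.364 ± 0.072 (limma adjusted p = 0.0533) and its partner *Gli1* at 0.638 ± 0.087 and 0.459 ± 0.115 (adjusted p = 0.164; SD, n = 4 each). The coreceptor *Gas1* was at 2.32 ± 0.44 and 2.69 ± 0.43 (adjusted p = 0.47). Over the 10 genes of the list tested there the median difference was 0.14, against 0.00461 for all genes of these cells, and 7 had an unadjusted p below 0.05, against 22.6% of all genes tested there. The list was set with earlier results of these data known, and *Ptch1* was named for this type after its value was seen. In peribronchial fibroblasts 7 Hedgehog genes were tested, all 7 with a higher CS mean, against 51.9% of all genes tested there, and none called, as was none of all 6961 genes (0%), *Boc*, *Gas1*, *Gli2* and *Ptch1* among them (limma adjusted p of 0.753 to 0.882). Values of these 7 genes without RA mouse 1 are not given. The ligand *Shh* was highest in club cells, at 0.254 ± 0.044 (n = 8).

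*Rin3* fell in both kinds of capillary endothelial cells. In aerocytes the level was 2.11, 2.04, 2.77 and 3.34 in CS mice 1 to 4 and 4.75, 3.98, 4.6 and 4.15 in RA mice 1 to 4. Each CS mouse was below each RA mouse. The means were 2.57 ± 0.61 and 4.37 ± 0.36 (SD, n = 4 each), a ratio of 0.587 (log2 difference −0.60, SE 0.12, limma adjusted p = 0.036). In these cells 1.96% of genes were called. The exact permutation p was 0.0286, the smallest that n = 4 each allows. Adjusted over the members, each in its highest type, it was 0.0571. *Adgrg6*, *Ireb2*, *Npnt* and *Thsd4* reached the same exact p in their highest types. In gCap cells the level was 2.11, 1.81, 2.2 and 2.5 in CS mice 1 to 4 and 3.09, 2.91, 2.87 and 2.59 in RA mice 1 to 4, again without overlap. The means were 2.16 ± 0.28 and 2.86 ± 0.21 (n = 4 each; log2 difference −0.29, SE 0.08, limma adjusted p = 0.0471), where 10.3% of genes were called. As the groups did not overlap, CS was by necessity lower in 4 of 4 lanes in both. With lane as a block the adjusted p was 0.0622 in aerocytes and 0.0915 in gCap cells (limma). The aerocyte call was lost without CS mouse 1 (log2 difference −0.54), CS mouse 2 (−0.53), CS mouse 3 (−0.64), RA mouse 2 (−0.64) or RA mouse 4 (−0.62), and the gCap call without any 1 of the 8 mice (−0.34 to −0.24).

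The other endothelial types had lower CS means too. In arterial endothelial cells *Rin3* was at 1.22, 0.808, 1.89 and 1.68 in CS mice and 2.48, 2.22, 2.79 and 1.97 in RA mice 1 to 4 (log2 difference −0.50, limma adjusted p = 0.111), without overlap. In venous endothelial cells the means were 1.35 ± 0.19 and 1.88 ± 0.19 (−0.30, adjusted p = 0.173), also without overlap, and in lymphatic endothelial cells 0.778 ± 0.179 and 0.939 ± 0.308 (−0.12, adjusted p = 0.799, and −0.02 without RA mouse 4; SD, n = 4 each, limma). After thinning to 2000 transcripts the share of aerocytes with *Rin3* was 38.1% in CS and 55.2% in RA mice, and of gCap cells 33.3% and 40.8% (exact permutation p = 0.0286 each, n = 4). Leukocyte types also hold *Rin3*. The leukocyte gene *Ptprc*, averaged over all aerocytes of a mouse, was at 0.0359 in CS and 0.0122 in RA mice (exact permutation p = 0.0286, n = 4 each). In gCap cells *Ptprc* was at 0.0352 and 0.0316 (exact p = 0.686). The NK and cytotoxic T cell markers *Nkg7*, *Gzma* and *Klrb1c* summed to 0.0221 and 0.0283 in aerocytes, with 1 of the 3 at 0, against 125 in their own type. Other markers had lower CS means, as *Rin3* did. In aerocytes the neutrophil markers *S100a8*, *S100a9* and *Retnlg* summed to 0.0801 and 0.255 (0 of 3 higher in CS, exact permutation p = 0.314) and the gCap markers *Gpihbp1*, *Kit* and *Aplnr* to 0.444 and 0.834 (exact p = 0.486). In gCap cells the NK and cytotoxic T cell markers summed to 0.00946 and 0.044 (0 of 3 higher, exact p = 0.286) and the neutrophil markers to 0.0987 and 0.27 (0 of 3 higher, exact p = 0.371; n = 4 each). The part of these markers in the *Rin3* result was not tested. In NK and cytotoxic T cells *Rin3* was at 3.35 in CS and 2.58 in RA mice (0.28, limma adjusted p = 0.478), with no overlap. Of the 20 types tested, 7 had a higher and 13 a lower CS mean.

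Of 11 genes of Rab5 signaling and endocytosis tested in aerocytes none was called (1.96% of all genes there), and of 10 tested in gCap cells 1 was, near the 10.3% of all genes there. *Rab31*, a Rab5-related GTPase, was at 1.67 ± 0.09 in CS and 1.17 ± 0.17 in RA gCap cells (log2 difference 0.30, limma adjusted p = 0.0291; named for this type after its value was seen), opposite to *Rin3*, with an adjusted p of 0.0728 with lane as a block and a call under 10 of 17 alternatives. In aerocytes it was at 3.54 ± 0.08 and 2.84 ± 0.25 (adjusted p = 0.105). The relative *Rin2* was at 4.6 ± 0.84 and 4.56 ± 0.90 in aerocytes (adjusted p = 0.956; SD, n = 4 each, limma). *Bin1*, which binds the RIN family and shapes membranes, was at 1.93 ± 0.17 and 2.21 ± 0.48 (adjusted p = 0.434).

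*Thsd4* rose in ciliated cells, a type that ranked seventh for this gene. The level was 1.09, 1.27, 1.18 and 1.07 in CS mice 1 to 4 and 0.589, 0.928, 0.818 and 0.764 in RA mice 1 to 4. Each CS mouse was above each RA mouse. The means were 1.15 ± 0.09 and 0.775 ± 0.141 (SD, n = 4 each; log2 difference 0.28, SE 0.058, limma adjusted p = 0.0253), and 4.63% of the genes in these cells were called. The call stood with lane as a block (adjusted p = 0.0415) and was lost without any 1 of the 4 CS mice (log2 differences of 0.26 to 0.30) or without RA mouse 4 (0.28). Club cell markers summed to 58.2 in CS and 45.8 in RA ciliated cells (ranges 42.4 to 73.4 and 31.1 to 58.9, 3 of 3 higher in CS, exact permutation p = 0.257) against 4135 in club cells. AT2 markers summed to 1.03 and 0.385 (ranges 0.346 to 2.16 and 0.199 to 0.566, 4 of 4 higher in CS, exact p = 0.2; n = 4 each) against 1309 in AT2 cells. Club and AT2 cells also hold *Thsd4*, and the part of these markers in the result was not tested.

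Over the 8 types tested the CS mean of *Thsd4* was higher in 6 and lower in 2, and without RA mouse 1 it was higher in 4. Of all comparisons 54.2% had a higher CS mean. In mesothelial cells, its highest type, the difference did not pass the test. The level was 7.19, 6.12 and 10.5 in CS mice 2, 3 and 4 and 3.56, 5.91, 5.48 and 5.52 in RA mice 1 to 4. The groups did not overlap (log2 difference 0.53, limma adjusted p = 0.25), and without RA mouse 1 the difference was 0.40 and without CS mouse 4 it was 0.34. Of 11 fibrillin and elastic fiber genes tested in mesothelial cells none was called (0.306% of all genes there), with a median difference of −0.01. The latent TGF-β binding protein *Ltbp4* was at 10.3 ± 2.1 and 10.8 ± 1.6 (adjusted p = 0.869), elastin (*Eln*) at 4.79 ± 1.51 and 3.61 ± 0.92 (adjusted p = 0.533), and *Fbln5*, which tethers elastin, at 2.15 ± 0.29 and 1.9 ± 0.48 (adjusted p = 0.694; SD, n = 3 CS and 4 RA, limma). In lymphatic endothelial cells *Thsd4* was at 2.11 ± 0.43 in CS and 2.86 ± 0.96 in RA mice (−0.29, limma adjusted p = 0.606; SD, n = 4 each), with overlap.

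**Figure D4:**
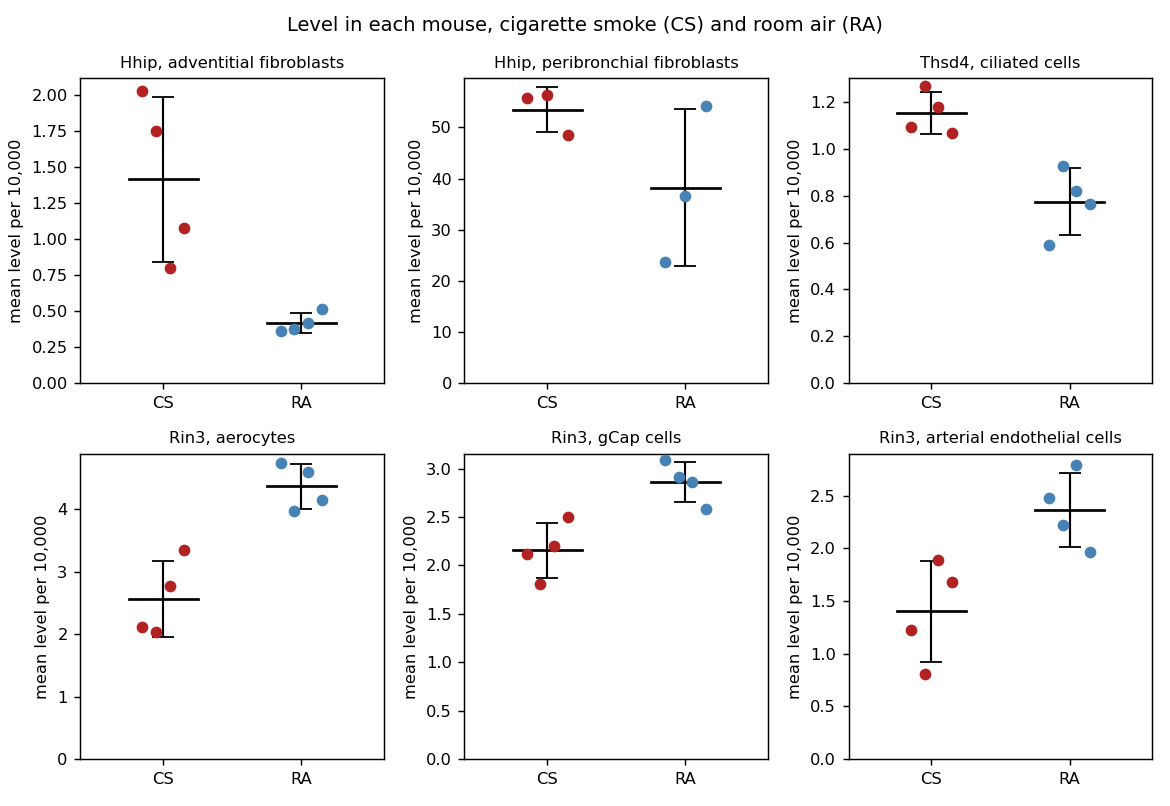
Level per 10,000 in each mouse (points) with the mean (bar) and SD (whiskers) in CS (red) and RA (blue) mice for 6 combinations of gene and cell type, each on its own axis from 0. The groups do not overlap in any panel but that of *Hhip* in peribronchial fibroblasts, where they span 48.4 to 56.3 and 23.7 to 54.3.

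*Npnt* and *Adgrg6* passed the test in no type. The CS mean of *Npnt* was higher in 5 of the 9 types tested and lower in 4, and without RA mouse 1 it was higher in 3. That of *Adgrg6* was higher in 7 of 9 types, and in 6 without RA mouse 1. The CS mean was higher in 54.2% of all comparisons. In alveolar fibroblasts *Npnt* was at 16.8, 16.1, 17.5 and 16.5 in CS mice 1 to 4 and 6.49, 13.6, 15.6 and 13.6 in RA mice 1 to 4. The groups did not overlap, with RA mouse 1 far below the rest (log2 difference 0.48, limma adjusted p = 0.196; 0.22 without RA mouse 1). In adventitial fibroblasts *Npnt* was at 2.08 in CS and 1.17 in RA mice (0.50, adjusted p = 0.0542), and in lymphatic endothelial cells at 2.51 and 1.11 (0.79, adjusted p = 0.262; 0.50 without RA mouse 1, which was at 0.0886), again without overlap. Its receptor chain *Itga8* was at 13.9 ± 0.6 and 10.2 ± 2.6 in alveolar fibroblasts (adjusted p = 0.143), *Itgav* at 1.16 ± 0.09 and 0.782 ± 0.101 (adjusted p = 0.0574) and *Itgb1* at 4.4 ± 0.31 and 4.34 ± 0.61 (adjusted p = 0.931; SD, n = 4 each, limma). None of these 3 was called (1.37% of all genes there), all 3 had a higher CS mean (50.8% of all genes) and 2 had an unadjusted p below 0.05 (22.3%). *Itga8* was at 6.74 in RA mouse 1 and at 9.56 to 12.4 in the other RA mice. Values of these 3 genes without RA mouse 1 are not given. In AT2 cells the *Npnt* mean was 0.79 in CS and 1.03 in RA mice (−0.18, adjusted p = 0.622). In AT1 cells it was at 6.66 ± 0.50 and 6.02 ± 1.57 (0.15, adjusted p = 0.625; SD, n = 4 each, limma), with RA mouse 1 at 3.84, and without that mouse the difference was −0.01.

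For *Adgrg6* the arterial level was 6.95, 8.11, 7.58 and 7.5 in CS mice 1 to 4 and 3, 5.55, 6.86 and 6 in RA mice 1 to 4. The groups did not overlap (log2 difference 0.47, limma adjusted p = 0.238; 0.26 without RA mouse 1). In alveolar fibroblasts the means were 2.63 and 1.82 (0.37, adjusted p = 0.0973), in adventitial fibroblasts 0.244 and 0.142 (0.12, adjusted p = 0.12), both without overlap. Of 7 ligand and cAMP genes tested in arterial cells none was called (0.669% of all genes there). *Gnas*, the stimulatory G protein, was at 8.15 ± 1.37 and 9.98 ± 1.27 (adjusted p = 0.425), and *Col4a1*, a chain of the *Adgrg6* ligand collagen IV, at 1.82 ± 0.73 and 2.16 ± 0.20 (adjusted p = 0.574; SD, n = 4 each, limma).

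*Ireb2* had a higher CS mean in 18 of the 20 types tested, with small differences (median 0.08, range −0.06 to 0.18) and no call, where 54.2% of all comparisons had a higher CS mean. Without RA mouse 1 the CS mean was higher in 17 of the 20. In B cells it was at 0.739, 0.944, 0.694 and 0.831 in CS mice 1 to 4 and 0.552, 0.601, 0.654 and 0.555 in RA mice 1 to 4, without overlap (0.18, limma adjusted p = 0.347). None of 5 iron genes tested in B cells was called, nor was any of the 6244 genes tested there (0%). The iron genes included the ferritin chains *Fth1* (21.4 ± 2.8 and 25.3 ± 4.7, adjusted p = 0.496) and *Ftl1* (4.13 ± 0.95 and 4.82 ± 1.32, adjusted p = 0.675) and *Fbxl5*, the ligase that degrades IRP2 (0.576 ± 0.153 and 0.613 ± 0.172, adjusted p = 0.884; SD, n = 4 each, limma).

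*Fam13a*, *Adam19*, *Dsp* and *Tns1* had no call in any type. *Fam13a* in club cells was at 2.72, 3.05, 2.57 and 4.4 in CS mice 1 to 4 and 1.5, 2.21, 3.24 and 3.85 in RA mice 1 to 4, with overlap (0.21, limma adjusted p = 0.744; 0.03 without RA mouse 1), whereas in alveolar fibroblasts its CS mean was lower, 2.3 against 2.91 (−0.25, adjusted p = 0.218). *Adam19* in AT2 cells was at 1.85, 1.84, 1.79 and 2.28 in CS mice and 1.46, 2.17, 1.67 and 1.64 in RA mice 1 to 4 (0.11, adjusted p = 0.833), and the difference ran from 0.05 without CS mouse 4 to 0.18 without RA mouse 2, with 0.06 without RA mouse 1. *Dsp* in AT1 cells varied little, from 0.895 to 0.984 in CS mice and 0.842 to 0.924 in RA mice (0.04, adjusted p = 0.793; 0.02 without CS mouse 1). *Tns1* in alveolar fibroblasts was at 15.2 to 20.5 and 13.6 to 16.4 (0.14, adjusted p = 0.542; 0.06 without CS mouse 4 and 0.08 without RA mouse 4). The lists set beside these genes held no call in their highest types either: 0 of 8 beta-catenin and related genes in club cells (*Ctnnb1* at 2.26 ± 0.25 and 2.17 ± 0.18, adjusted p = 0.91), 0 of 8 ADAM and substrate genes in AT2 cells (*Hbegf* at 1.87 ± 0.25 and 1.79 ± 0.33, adjusted p = 0.941), 0 of 8 desmosome and keratin genes in AT1 cells (*Krt8* at 5.34 ± 0.43 and 6.39 ± 1.03, adjusted p = 0.344) and 0 of 12 focal adhesion genes in alveolar fibroblasts (*Vcl* at 4.57 ± 0.51 and 3.61 ± 0.25, adjusted p = 0.157; SD, n = 4 each, limma). Of all genes tested 0.199% were called in club cells, 0% in AT2 cells, 2.38% in AT1 cells and 1.37% in alveolar fibroblasts. An unadjusted p below 0.05 was reached by 1, 1, 1 and 5 of the list genes, against 10.4%, 7.43%, 17.6% and 22.3% of all genes in these types. All 12 focal adhesion genes had a higher CS mean in alveolar fibroblasts, where 50.8% of all genes did, with a median difference of 0.17 against 0.00216 for all genes. These 12 genes share the same mice, and their values without RA mouse 1 are not given.

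A further list of genes from COPD and lung function loci was read in every type. In 255 comparisons over 25 genes, 6 were called (2.35%, against 1.23% of all), 4 higher and 2 lower in CS mice, and they came from 5 genes. *Tgfb2*, a growth factor of the TGF-β family, was at 2.26 ± 0.19 in CS and 0.972 ± 0.297 in RA AT1 cells (log2 difference 0.74, limma adjusted p = 0.0014), called under 17 of 17 alternatives, and at 0.948 ± 0.137 and 0.497 ± 0.191 in adventitial fibroblasts (0.39, adjusted p = 0.0419; 0.0995 with lane as a block). *Tet2*, which oxidizes methylated cytosine, was at 0.529 ± 0.029 and 0.297 ± 0.075 in gCap cells (0.24, adjusted p = 0.0227; 0.0646 with the block). *Cyp2a5*, whose near-identical relative *Cyp2a4* could share its reads, was at 1.53 ± 0.12 and 0.649 ± 0.231 in club cells (0.62, adjusted p = 0.0259), called under 9 of 17 alternatives and lost without any 1 of the 4 CS mice (0.60 to 0.65) or without RA mouse 4 (0.62). In ciliated cells *Astn2* was at 0.991 ± 0.107 and 1.53 ± 0.27 (−0.34, adjusted p = 0.0326; 0.0533 with the block) and *Id4* at 0.536 ± 0.112 and 0.963 ± 0.237 (−0.35, adjusted p = 0.0447; SD, n = 4 each). The *Astn2* and *Id4* calls each held under 9 of 17 alternatives and the *Tet2* call under 10 of 16, and the *Id4* call was lost without any mouse but RA mouse 2. The *Tgfb2* call in adventitial fibroblasts held under 7 of 17.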

How the data were processed

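Single-cell libraries (10x, 3′) from 4 CS and 4 RA mice were aligned by the authors with STAR 2.7.3a (STARsolo) to GRCm38.p6, per the labels, and spliced and unspliced reads were counted. The deposited values are estimated counts: UMI counts after the authors removed free RNA with SoupX, of which 1.28% were whole within 1e-06, so no count model was used. The deposited table also gives the percent of mitochondrial transcripts, which the authors used as a cell filter and which was not used here. Cell types are the authors' clusters, and the authors' multiplets and cycling cells were left out; no further doublet call was made. No column of the tables was left unmatched (0). Gene positions were taken from GENCODE M21 (GRCm38) and promoters from RefSeq (GRCm38.p6); all 10 genes matched.

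Each cell's counts were divided by its total and multiplied by 10000, then averaged per mouse and type (20 cells or more). limma 3.58.1 in R 4.3.3 was fitted to log2(mean + 1) over mice with a variance trend, for genes found in 10% or more of CS or RA cells, and p-values were adjusted within a type (Benjamini-Hochberg, 0.05). Neighbors in the order of levels were compared with exact sign-flip tests on log2(level + 0.1), and single values with exact permutation tests; all were two-sided. Shares of cells were compared after thinning each cell to 2000 transcripts, as the expected share with the gene, leaving out shallower cells. The fit was tested on simulated data with known changes. Lanes, named in the labels, pair 1 CS with 1 RA mouse. The deviations of lane partners from their group means had median correlations across genes of −0.08 to 0.06. This summary was not tested and cannot show whether a lane shifted a single gene. The genes named are the 10 members, called list genes and up to 3 more of each list by level, and the 3 most similar genes by correlation. The members, lists and markers were chosen with earlier results of these data known.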

Additional observations from a re-analysis of the deposited data

Results flagged for a closer look

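Among 27 groups of 4 mice checked, a single mouse lay far from the others in 2, where chance gives about 1 in 20. For *Adam19* in AT2 cells, CS mouse 4 was at 2.28 while the other CS mice were at 1.79 to 1.85. For *Tns1* in alveolar fibroblasts, RA mouse 4 was at 13.6 while the other 3 RA mice were all at 16.4.

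The CS difference of *Rin3* was compared between types by an exact permutation of the exposure labels on each mouse's difference between the types. It was −0.29 in gCap cells and −0.60 in aerocytes, which differ by 0.31 (exact permutation p = 0.0286, the smallest possible with n = 4 each; adjusted p = 0.229 over 12 such comparisons). It was the only 1 of the 12 with an unadjusted p below 0.05. At that smallest p, at least 7 of the 12 comparisons would have been needed for an adjusted p below 0.05, so the adjusted value of a single comparison says nothing either way. *Hhip* in peribronchial against adventitial fibroblasts gave a difference of −0.10 (exact p = 0.8, n = 3 each, where no p under 0.1 can be reached).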

How the results depend on the processing

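The number of members' comparisons called, 4 of 105 in the report (1.23% of all genes' comparisons), was 0 of 215 with no filter on genes (0.0216%), 1 of 105 with lane as a replicate block (0.383%; *Thsd4* in ciliated cells, with no call gained), 1 of 105 with adjustment over all types (0.389%) and 21 of 105 with a Wilcoxon test over single cells, in which cells and not mice are counted (8.58%). For these 21 the p-values were adjusted by Bonferroni within a type, not by Benjamini-Hochberg. With genes in at least 25% of cells it was 5 of 73 (2.51%), more than in the report. Leaving out 1 mouse at a time gave 0 to 4 calls (0.265% to 1.26%). The 4 calls without RA mouse 3 did not include *Rin3* in gCap cells, so another member was called there. The 4 called differences kept their direction under each alternative: *Hhip* in adventitial fibroblasts at 0.37 to 1.48 (called under 13 of 19), *Rin3* in aerocytes at −0.77 to −0.53 (11 of 19), *Rin3* in gCap cells at −0.40 to −0.24 (5 of 19) and *Thsd4* in ciliated cells at 0.23 to 0.53 (12 of 19). Each of these counts includes the setting of at least 50 cells, which keeps the same mice here and so repeats the report's fit. They also include a term for the labelled sex, which did not match in the CS mice, and the test over single cells. The alternatives of the list genes likewise include the 50-cell setting and the labelled sex. With no filter on genes more genes are tested, and with 1 mouse fewer the fits have fewer samples. The cause of the losses was not tested for any setting. With at least 50 cells per mouse no value could be given for *Hhip* in peribronchial fibroblasts or *Adgrg6* in arterial endothelial cells.

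The log2 ratio of the highest type to the next turned for *Fam13a* with the ratio of summed counts (−0.066) and in RA mice only (−0.11), where alveolar fibroblasts came first, and for *Rin3* in CS mice only (−0.37), where NK and cytotoxic T cells did. It moved by more than its spread over mice for *Hhip* in RA mice only (6.21), for *Adam19* with at least 50 cells per mouse (1.15), and with shares of thinned cells for *Hhip* (3.09), *Adgrg6* (0.73), *Npnt* (0.35) and *Tns1* (0.066). The other 129 alternatives of these orders were within that spread. *Hhip* in AT2 against smooth muscle cells was −2.82 in the 1 RA mouse with 20 cells of both types, a value with no replicate. Few cells limit peribronchial fibroblasts (252) and smooth muscle cells, and levels near 0.1 rest on few transcripts.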

Other observations

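Smooth muscle cells were too few for the order, with 11 to 35 cells in 7 mice, and reached the highest mean of *Thsd4* of any type in the files. The level was at 15.8, 17.1, 11.5 and 11.5 in CS mice 1 to 4 and 7.05, 5.67 and 8.03 in RA mice 1, 2 and 3. These values were picked after they were seen and were not tested. *Npnt* was at 2.38 ± 0.86 in smooth muscle cells (n = 7) and at 2.65 ± 1.3 in pericytes (n = 6). *Dsp* was at 2.14 ± 1.3 in neuroendocrine cells (n = 5), and *Rin3* at 3.18 ± 1.15 in cDC2 (n = 7) and 2.31 ± 1.3 in cDC1 (n = 3).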
